A study of Mus musculus with 4 samples.

Results

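Among the olfactory sensory neurons of the mouse, a small set that the authors classed as ventral carried high levels of Cd55. The authors grouped mature neurons by their transcriptomes after removing the olfactory receptor genes, and the group described here consisted of the neurons they named "Cd55+ V.". It held 352 of the 9539 clustered mature neurons and was set against the 4600 neurons of the plain Ventral cluster, the largest ventral group, which lacks the Cd55, Cd36, Calb2 and Dlg2 labels. All cells came from the main olfactory epithelium (MOE) of 4 unstimulated male C57BL/6 mice (C57BL/6J in the study's methods) aged 8 weeks, with 1 droplet library per mouse and no genetic change or treatment. The 4 mice formed 1 group, so comparisons were made between sets of neurons within each mouse. The libraries held between 23157467 and 32382702 unique molecular identifiers (UMIs), each UMI marking 1 captured transcript.

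Each mature olfactory sensory neuron expresses, as a rule, a single allele of a single olfactory receptor gene, and the neurons that share a receptor form an olfactory population whose axons converge in the olfactory bulb. Receptor genes are also restricted to zones of the nasal cavity, with Nqo1 marking dorsal and Nfix marking ventral neurons. Cd55, also known as decay-accelerating factor, is a membrane-anchored protein that protects cells from complement by speeding the decay of the enzymes that activate it.

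The Cd55+ V. neurons were found in every mouse. They numbered 104, 90, 74 and 84 in mice 1 to 4, which was 3.98% (Wilson 95% interval 3.29 to 4.80), 3.92% (3.20 to 4.80), 4.32% (3.45 to 5.39) and 2.88% (2.33 to 3.55) of the clustered neurons. The mean share was 3.78% ± 0.621 (SD, n = 4), and the intervals cover counting error only. When the authors clustered the same neurons with the receptor genes kept, 339 of the 352 (96.3%) were again placed in Cd55+ V., 11 in Ventral and 2 in Cd55+ D., the dorsal cluster of the same name. The median depth per mouse was 4475 to 6699 UMIs per Cd55+ V. neuron and 4009 to 6629 UMIs per Ventral neuron, and within each mouse it was 1.06% to 12.9% higher in Cd55+ V. The median percent of mitochondrial UMIs was lower in Cd55+ V. in 4 of 4 mice (0.82 to 1.33 against 1.07 to 1.55, difference -0.235 percentage points ± 0.0167, SD, n = 4). The part of this difference in the gene levels was not tested. No barcode of a Cd55+ V. neuron occurred in another library.

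The given markers, Cd55 and Nfix, were both present. Cd55 (ENSMUSG00000026399, chr1:130439027-130462744, minus strand, GRCm38) stood at 16.9, 17.4, 18.0 and 17.4 UMIs per 10000 in the Cd55+ V. neurons of mice 1 to 4 and at 0.681, 0.668, 0.648 and 0.736 in Ventral neurons. This was a 25.5-fold difference (log2 ratio 4.67 ± 0.10, SD, n = 4), with all mice far apart. Because the authors built the clusters from these same genes, it is a description of the cluster and carries no test. Cd55 was not confined to these neurons. The mean level over mice was 14.8 ± 2.58 in Cd55+ D., 8.92 ± 0.982 in Cd36+ D. and 6.92 ± 0.320 in Cd36+ V. neurons (SD, n = 4), whereas the other 6 clusters lay at or below 1.02. The ranges of Cd55+ V. and Cd55+ D. over mice overlapped, since mouse 3 reached 18.0 in both. With every cell thinned to 3000 UMIs, 96.5% ± 1.86 of Cd55+ V. neurons had a Cd55 UMI, against 10.3% ± 0.751 of Ventral neurons and 1.96% ± 0.583 of sustentacular cells, the glia-like supporting cells (SD, n = 4). Without thinning the 3 shares were 98.5%, 12.6% and 4.02%, at median depths of 5411, 4696 and 5587 UMIs. Outside the neurons Cd55 was not rare everywhere. Of microvillar cells of the Mv2 cluster, 33.1% ± 1.70 had a Cd55 UMI after thinning and 49.2% ± 7.82 without it. The thinned shares of Cd55+ D. and Cd36+ V. neurons were 94.7% ± 4.73 and 73.5% ± 2.41. Thinning left out 31 of the 352 and 801 of the 4600 neurons.

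Nfix, a nuclear factor I transcription factor, stood at 3.86, 5.70, 5.13 and 4.94 UMIs per 10000 in Cd55+ V. and at 4.88, 5.88, 5.64 and 5.69 in Ventral neurons, and the ranges overlapped. In the 5 dorsal clusters its mean lay between 0.238 and 0.463. Nqo1, a quinone reductase of dorsal neurons, reached 2.34, 2.05, 2.12 and 0.310 UMIs per 10000 in the Cd55+ V. neurons of the 4 mice, against a mean of 0.475 ± 0.0779 in Ventral and 13.6 to 34.1 in the dorsal clusters. A Nqo1 UMI was found in 53 of the 352 neurons, and 3 identities, picked after their values were seen, held the most of the 358 UMIs. These were Olfr839-ps1 with 91 UMIs in 19 neurons (25.4%), of which 73 came from mouse 2, Olfr107 with 72 in 6 neurons (20.1%) and Olfr1055 with 52 in 2 neurons (14.5%). Their Nqo1 levels were 9.27, 18.3 and 50.4 UMIs per 10000. The level of Olfr107 neurons thus lay within the range of the dorsal cluster means and that of Olfr1055 neurons above it. Over the 15 largest receptor populations the median level was 0.184.

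**Figure D1:**
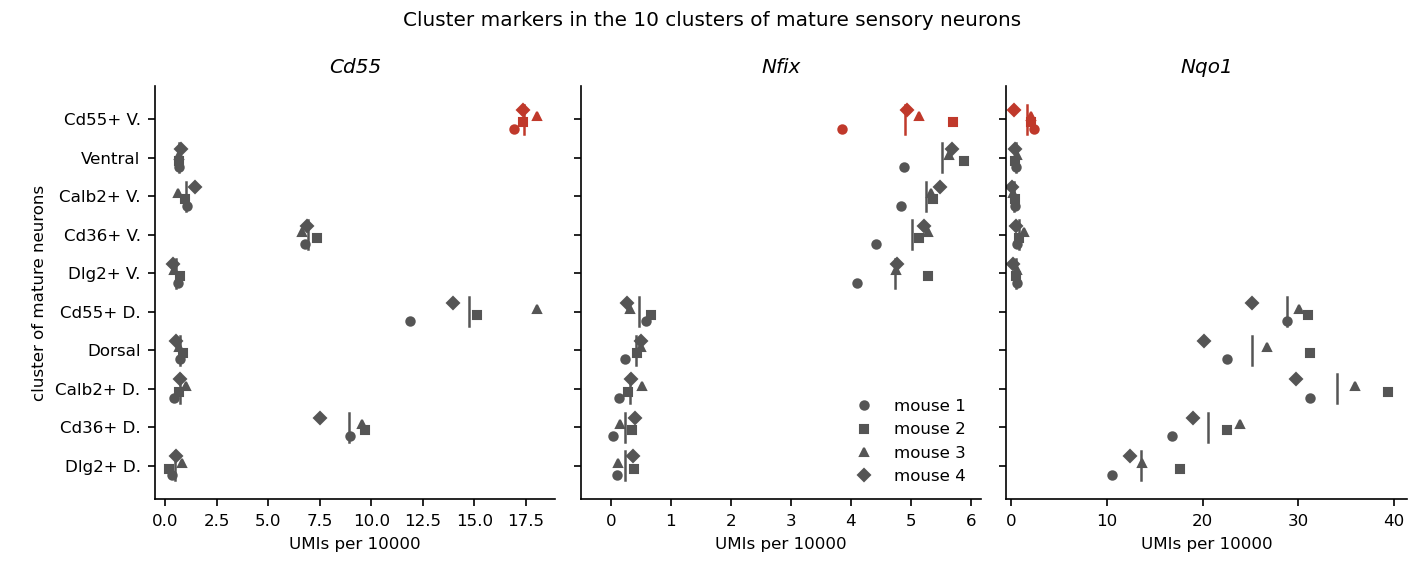
UMIs per 10000 of Cd55, Nfix and Nqo1 (horizontal axes, 1 panel per gene) in the 10 clusters of mature neurons (vertical axis), with 1 symbol per mouse and a bar at the mean of 4 mice. Cd55+ V. neurons combine a Cd55 level of 16.9 to 18.0 with an Nfix level of 3.86 to 5.70, and Nqo1 lies at 0.310 in mouse 4 against 2.05 to 2.34 in the others.

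The upstream sequence of Cd55 is shown because a long antisense gene that moved with it, Gm16083 (described with the higher genes), lies over the same stretch. It is the run of 250 bases before the annotated start, chr1:130462745-130462994, minus strand, from RefSeq (GRCm38.p6). Capitals mark the 1 match to CCCNNGGG, the core of the motif bound by Ebf factors, which starts 105 bases before the gene start. Such a match on either strand was present in 11.8% of 32851 promoters. The longer Ebf motif, with T before and A after this core, had no match and was present in 0.779% of promoters. The homeodomain motif TAATTA (4.84% of promoters), the NFI motif TTGGCA (12.3%) and the E-boxes CATATG (3.46%) and CAGCTG (13.0%) had no match in these 250 bases either.
Cd55 upstream: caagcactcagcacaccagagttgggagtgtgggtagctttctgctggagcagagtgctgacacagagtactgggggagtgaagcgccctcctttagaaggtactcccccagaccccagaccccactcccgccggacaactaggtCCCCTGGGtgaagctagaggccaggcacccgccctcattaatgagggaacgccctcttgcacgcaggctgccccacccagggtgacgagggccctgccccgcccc

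The Cd55+ V. cluster differed from Ventral in many genes besides Cd55. A gene was counted as apart when its 4 values in one cluster lay outside the range of the 4 values in the other and the ratio reached 1.5-fold. Its mean level over both clusters also had to reach 0.2 UMIs per 10000. Of 6477 genes at that level, 212 (3.27%) were higher and 217 (3.35%) were lower in Cd55+ V. neurons. With TMM scaling in place of plain totals the split was 176 higher and 285 lower. The median log2 ratio of all these genes was 0.015, and 90% lay between -0.53 and 0.51 (the 5th and 95th percentiles). The clusters were defined by these genes, so the counts describe them and test nothing. Among the genes that were apart and reached 0.5 UMIs per 10000 in the higher cluster, the 12 with the largest ratios in each direction are given next.

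Besides Cd55, Zpld2 and Gng3 had the largest ratios among the named higher genes. Zpld2, which encodes a zona pellucida-like domain protein, stood at 2.53, 3.36, 3.09 and 3.00 UMIs per 10000 against 0.0849, 0.134, 0.0630 and 0.0555 in Ventral neurons (log2 ratio 5.22 ± 0.54, SD, n = 4). Pcdh11x, an X-linked protocadherin, stood at 1.44, 2.09, 2.26 and 1.84 against 0.0685, 0.104, 0.0894 and 0.0761 (4.48 ± 0.16). Every mouse was higher in Cd55+ V. for both genes, and the clusters were far apart, with a log2 ratio of 4.49 for Zpld2 when each receptor population counted once. Gng3, a G protein gamma subunit, stood at 0.718, 1.00, 0.651 and 0.362 against 0.0206 to 0.0305 in Ventral neurons (4.66 ± 0.53). Dio2, the deiodinase that activates thyroid hormone, stood at 1.12, 1.11, 0.936 and 1.42 against 0.0626 to 0.0883 (3.88 ± 0.27). Crym, which binds thyroid hormone inside cells, went the other way, with 15 UMIs in Cd55+ V. and a mean of 0.0747 ± 0.05 UMIs per 10000 against 0.562 ± 0.0465. The antisense gene Gm16083 (chr1:130462576-130557075, plus strand), which overlaps the first bases of Cd55, had a mean of 0.677 ± 0.0918 against 0.0279 ± 0.00358. Gm26512 (chr12:90738201-90869235, plus strand), a noncoding gene that starts inside Dio2 in the opposite direction, had 0.712 ± 0.169 against 0.0498 ± 0.0109. Both are pairs that overlap on opposite strands. The authors counted with the default settings of Cell Ranger, which for 3′ libraries count reads on the sense strand of a gene.

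The other higher genes were Arpp21, a cyclic AMP-regulated phosphoprotein (0.813 ± 0.179 against 0.0526 ± 0.00277 UMIs per 10000), Fxyd2, a regulatory subunit of the sodium pump (0.777 ± 0.206 against 0.0595 ± 0.0222), and Cfap52, a cilia- and flagella-associated gene (0.873 ± 0.0971 against 0.0721 ± 0.0174). Igfbp7, a secreted protein that binds insulin-like growth factors, had 0.572 ± 0.161 against 0.0371 ± 0.0196, and the noncoding gene Gm49542 had 2.58 ± 0.554 against 0.134 ± 0.0183. The values of the 4 mice did not overlap between clusters for any of them, as the definition requires.

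Among the genes lower in Cd55+ V. neurons, Mslnl, Adam28 and Tuba4a were nearly absent from them. Mslnl, a mesothelin-like gene, stood at 0.0780, 0.0891, 0.0610 and 0.0258 UMIs per 10000 against 4.55, 4.46, 4.08 and 4.91 (log2 ratio -6.01 ± 0.67, SD, n = 4), which was the lowest of the 10 clusters. Faim2, an inhibitor of Fas-triggered cell death, stood at 1.12, 1.16, 1.2 and 0.905 against 9.11, 10.1, 8.87 and 9.81 (-3.10 ± 0.23). Both genes were lower in all mice with wide gaps, although the log2 ratio of Mslnl was -5.24 after thinning. Adam28, a cell-surface metalloproteinase, had 3 UMIs in all Cd55+ V. neurons together and 2939 in Ventral neurons, a pooled level 84.1 times lower with an exact 95% counting interval of 28.8 to 408 times. Tuba4a, an alpha-tubulin, had a mean of 0.0249 ± 0.00478 against 1.41 ± 0.122, and Cadps2, which primes dense-core vesicles, 0.0374 ± 0.0289 against 1.17 ± 0.0430. Ptn, the growth factor pleiotrophin, had 0.0742 ± 0.0467 against 1.96 ± 0.196, Bcar3, an adaptor protein, 0.0388 ± 0.0317 against 0.722 ± 0.0808, and Cidea, a lipid-droplet protein, 0.115 ± 0.0474 against 2.07 ± 0.251. Fezf1, a transcription factor required for olfactory axons to reach the brain, had 0.0540 ± 0.0190 against 0.639 ± 0.0808, and Tmem132a, a transmembrane protein, 0.0504 ± 0.0479 against 0.529 ± 0.142.

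Avp, the vasopressin gene, was the exception in its distribution. No UMI was found in Cd55+ V. neurons, whose floor of 3 counts over the cluster is 0.0152 UMIs per 10000. The pooled Ventral level was 37.2-fold above this floor, which counts UMIs as independent. The 1299 Ventral UMIs came from 67 of 4600 neurons, however, and 582 of them (44.8%) from a single neuron. UMIs held by so few neurons are not independent, so the value is not a least difference between the clusters. The Ventral level was 1.21, 0.0522, 0.248 and 0.537 UMIs per 10000 in mice 1 to 4, and without mouse 1 it was 13.3-fold above the floor, with the same limit.

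**Figure D2:**
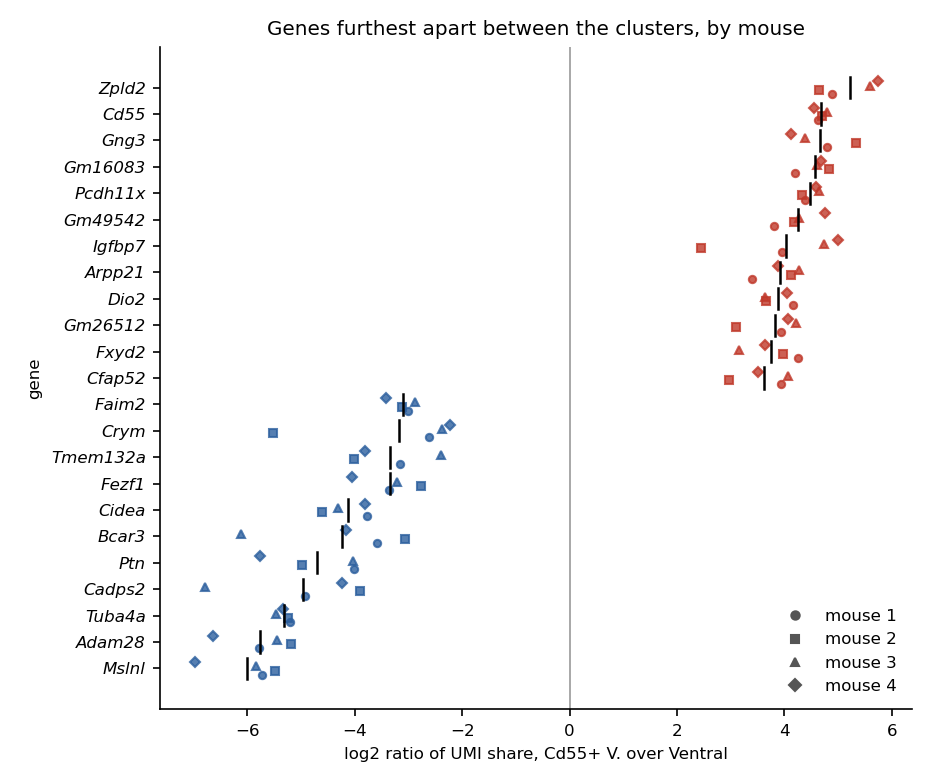
Log2 ratio of UMIs per 10000 in Cd55+ V. over Ventral neurons (horizontal axis) for Cd55 and the other named genes (vertical axis), with 1 symbol per mouse and a bar at the mean. A pseudocount of 0.5 UMIs was added to each sum, and Avp is not drawn because it had no UMI in Cd55+ V. neurons. The ratios run from 5.22 for Zpld2 to -6.01 for Mslnl, and the mice lay closest together for Cd55 (SD 0.10) and Tuba4a (SD 0.12).

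Genes of the olfactory transduction cascade were lower in part. Odour binding activates the adenylate cyclase Adcy3 through a G protein, cyclic AMP opens the cation channel that holds Cnga2, calcium opens the chloride channel Ano2, and phosphodiesterases end the signal. Of 18 transduction genes at the level tested, 6 were lower and 0 were higher, where 3.35% and 3.27% of all genes were, with a median log2 ratio of -0.38 against 0.015 for all genes. Cnga2 stood at 4.00, 4.03, 4.98 and 4.39 UMIs per 10000 against 7.76, 8.39, 8.27 and 8.49 (-0.92 ± 0.14), and Adcy3 at 7.16, 8.62, 8.73 and 8.04 against 11.3, 13.1, 12.0 and 13.1 (-0.60 ± 0.11). In both genes every Cd55+ V. value lay below every Ventral value. Their means were lower still in Cd36+ V. neurons (3.97 ± 0.142 for Cnga2 and 6.80 ± 0.698 for Adcy3). This also held for Cd36+ D. neurons (4.10 ± 0.130 and 7.21 ± 1.29). The other 4 were Ano2 (1.67 ± 0.336 against 3.53 ± 0.340), the phosphodiesterases Pde1c (2.64 ± 0.410 against 4.93 ± 0.700) and Pde4a (3.03 ± 0.448 against 6.34 ± 0.571), and Stoml3, a stomatin-like protein of the cilia (48.7 ± 1.06 against 94.4 ± 4.92). The G protein subunit Gnal (24.0 ± 2.05 against 28.9 ± 1.61) and the receptor-transporting genes Rtp1 (5.36 ± 0.705 against 4.34 ± 0.420) and Rtp2 (5.2 ± 0.179 against 4.32 ± 0.0800) stayed within 1.5-fold. Omp, the marker of maturity, was within 1.5-fold but lower in every mouse, with 55.1, 57.5, 63.1 and 56.7 against 74.8, 82.7, 76.0 and 80.7 (58.1 ± 3.47 against 78.5 ± 3.74). Of the 10 clusters, Cd55+ V. had the lowest mean and Ventral the highest. Dlg2+ D. (59.73 ± 3.91) and Cd36+ D. (60.35 ± 4.49) lay close to Cd55+ V., with overlapping ranges over mice. The part of the Omp difference from Ventral in the lower transduction genes was not tested.

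Axon guidance and adhesion genes, which help sort the axons of each population in the bulb, differed in both directions. Of 25 such genes, 4 were higher and 10 lower, against 3.27% and 3.35% of all genes (median log2 ratio -0.44 against 0.015). The higher ones were Pcdh8, a protocadherin (1.98, 1.85, 2.32 and 1.91 UMIs per 10000 against 0.472, 0.550, 0.474 and 0.485), Plxna1, a semaphorin co-receptor (2.90 ± 0.484 against 1.19 ± 0.188), Robo2, a Slit receptor (1.68 ± 0.303 against 0.759 ± 0.0721), and the ephrin Efna5 (2.04 ± 0.421 against 0.945 ± 0.167). Among the lower ones, Sema7a, a membrane-anchored semaphorin, stood at 0.437, 0.445, 0.346 and 0.465 against 1.62, 1.89, 1.84 and 2.18 (log2 ratio -2.12 ± 0.22). Nrp1, the semaphorin receptor graded along one axis of the bulb, had 4 UMIs in Cd55+ V. and a mean of 0.0168 ± 0.0222 against 0.478 ± 0.0402. The adhesion molecules Kirrel2 (4.13 ± 0.937 against 7.58 ± 0.852) and Pcdh10 (0.160 ± 0.0637 against 1.11 ± 0.291) and the ephrin receptor Epha5 (3.26 ± 0.195 against 6.32 ± 0.471) were also lower, as were Epha7, Kirrel3, Pcdh9, Pcdh17 and Plxna3, with log2 ratios of -0.63 to -2.75.

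A list of genes whose level is known to change with neuronal activity joined genes raised by it, such as Kirrel2, Epha5 and S100a5, with genes lowered by it, Kirrel3 and Efna5, so its counts have no single direction. Of 10 tested, 7 were lower and 1 higher, against 3.35% and 3.27% of all genes (median log2 ratio -0.92 against 0.015). S100a5, a calcium-binding protein of olfactory neurons, had 113 ± 13.7 against 208 ± 16 UMIs per 10000, and Pcp4l1, a calmodulin-binding relative of Pcp4, stood at 2.95, 3.36, 2.85 and 3.26 against 13.9, 14.2, 18.5 and 16.5 (-2.33 ± 0.26). Neither overlapped between the clusters. The other 5 lower genes (Kirrel2, Kirrel3, Sema7a, Epha5 and Pcdh10) and the higher Efna5 also belong to the guidance list. The early response genes Fos (1.00 ± 0.213 against 0.872 ± 0.140) and Junb (0.284 ± 0.108 against 0.252 ± 0.0582) were not apart.

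In each of the remaining lists, leaving aside the markers of other cell types, 1 to 3 genes were apart, where 3.27% of all genes were higher and 3.35% lower. Of 14 genes of the endoplasmic reticulum stress pathway, 1 was lower, the chaperone Dnajb9 (1.57 ± 0.102 against 2.62 ± 0.242), whereas the transcription factor Atf5, a step between stress and receptor choice, had 30.9 ± 2.04 against 32.3 ± 0.546. Of 15 transcription factors of olfactory neurons, Emx2 was higher (1.70 ± 0.146 against 0.933 ± 0.123) and Nfia was lower (0.307 ± 0.0598 against 0.480 ± 0.0477). Lhx2 and the Ebf factors were not apart, although Ebf1 (18.25 ± 0.980 against 12.45 ± 0.164) was higher in every mouse and only just within 1.5-fold. Of 14 presynaptic genes, Snap25 (2.60 ± 0.286 against 4.55 ± 0.0463) and Syn2 (0.526 ± 0.0831 against 0.881 ± 0.109) were lower. Of 10 ion channel genes, 1 was lower, the potassium channel subunit Kcnmb3 (0.302 ± 0.0329 against 0.974 ± 0.108). Of 6 calcium-binding genes, 3 were lower, Necab1 with S100a5 and Pcp4l1. Of 9 genes of immature neurons, Tubb3 (9.03 ± 0.386 against 5.19 ± 0.122) and Crmp1 (0.735 ± 0.0963 against 0.484 ± 0.0639) were higher. Of those below the level tested, Dpysl3 (0.299 ± 0.113 against 0.0917 ± 0.0231), Nhlh2 (0.160 ± 0.0427 against 0.0656 ± 0.0134) and Gng8 (0.0682 ± 0.0438 against 0.0247 ± 0.00724) had higher means in Cd55+ V. Gap43 (0.0722 ± 0.0260 against 0.145 ± 0.0182), Marcksl1 (0.0593 ± 0.0350 against 0.0621 ± 0.00785) and Nhlh1 (0 against 0.00442) had lower means. Of 12 complement regulators, Cr1l reached the level besides Cd55 and was not apart (0.587 ± 0.0520 against 0.520 ± 0.0646).

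**Figure D3:**
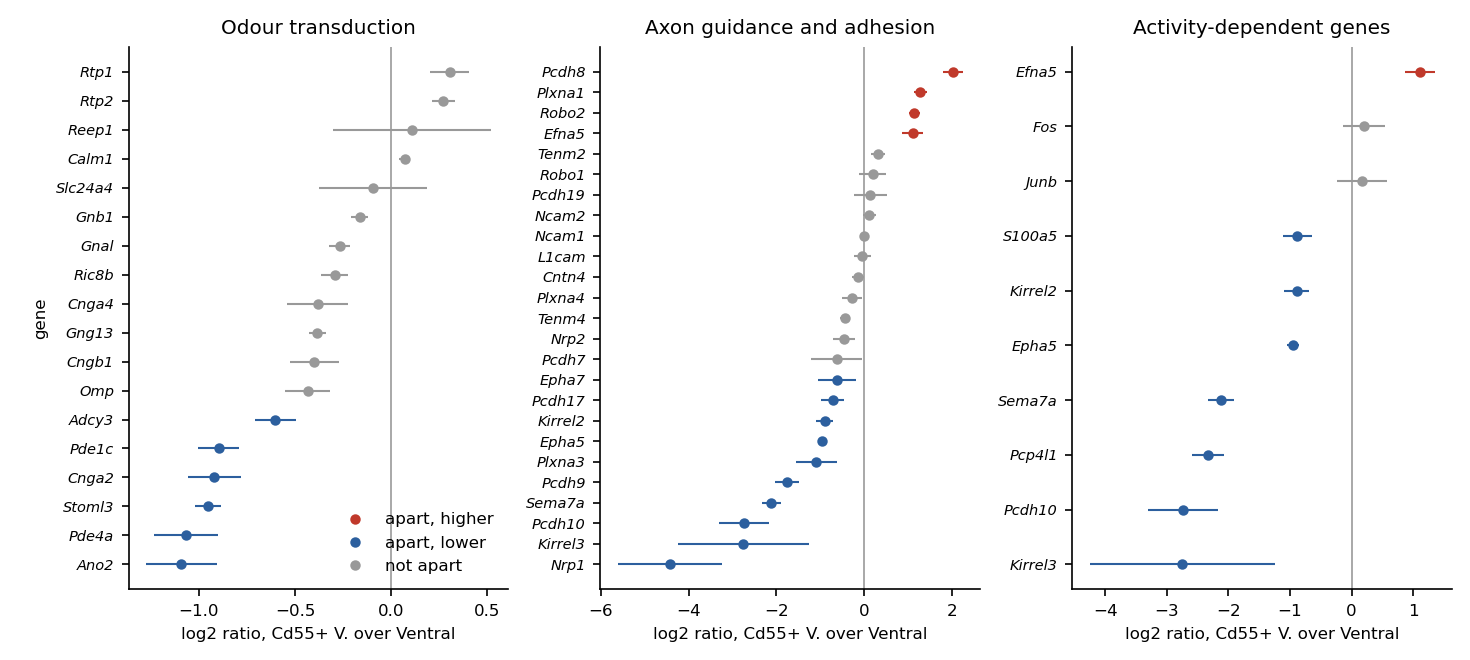
Log2 ratio of Cd55+ V. over Ventral neurons (horizontal axes, mean and SD of 4 mice) for the tested genes of the transduction, guidance and activity lists (vertical axes), with genes that were apart in red (higher) or blue (lower) and the others in grey. The transduction genes reach down to -1.09 for Ano2, and the guidance genes run from 2.03 for Pcdh8 to -4.43 for Nrp1.

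Markers of other cell types were low in the cluster. All 4 basal cell genes (Krt5, Krt14, Krt15 and Trp63) were at 0, and the summed level of 7 immune genes was 0 to 0.111 UMIs per 10000 in the 4 mice against 0.0507 to 0.112 in Ventral neurons. The 6 sustentacular genes summed to 0.203 to 0.290 against 0.143 to 0.187, the 6 microvillar genes to 0.0156 to 0.111 against 0.0793 to 0.101, the 5 precursor genes to 0 to 0.0258 against 0.00894 to 0.0241, the 6 glial and vessel genes to 0.0610 to 0.233 against 0.0412 to 0.0883, and the 4 haemoglobin genes to 0.140 to 1.11 against 0.115 to 1.34. The genes Trpm5, Ptprc, Sox10 and Cdh5 had no UMI in Cd55+ V. neurons and 15, 6, 1 and 0 in the more numerous Ventral neurons. The vessel gene Pecam1 had 25 UMIs and a level of 0.127 ± 0.0758 against 0.0487 ± 0.0161, higher in 3 of 4 mice. The sustentacular sums of the 2 clusters did not overlap, and their part in the gene differences was not tested.

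Part of this profile was shared with the dorsal cluster of the same name, which holds other neurons and was compared with the Dorsal cluster. Of 212 genes higher in Cd55+ V., 189 were tested there and 67 (35.4%) were higher in Cd55+ D. over Dorsal, where 2.47% of 6327 genes were higher, and 1 was lower. Of 217 lower genes, 189 were tested and 49 (25.9%) were lower in Cd55+ D., where 2.1% of genes were lower, and none was higher. Zpld2 (1.66 ± 0.369 against 0.0631 ± 0.0363 UMIs per 10000), Pcdh11x (0.876 ± 0.398 against 0.0730 ± 0.0160), Dio2 (0.665 ± 0.151 against 0.0524 ± 0.0241) and Mslnl (0.208 ± 0.202 against 3.94 ± 0.483) moved the same way dorsally. Faim2 did as well but with a log2 ratio of -1.06 ± 0.10, from 11.6 ± 0.623 in Dorsal to 5.52 ± 0.388 in Cd55+ D. neurons. Igfbp7, Gm26512, Fxyd2, Avp, Cidea and Tmem132a lay below the level tested, a mean over both clusters, here Cd55+ D. and Dorsal. Among them were Gm26512 with 0.219 ± 0.0831 against 0.00668 ± 0.00685 and Cidea with 0.0134 ± 0.0267 against 0.109 ± 0.0261. The 2 pairs of clusters come from the same 4 libraries, and both were named by the authors for Cd55. Some named genes, picked after their values were seen, also stood away from their Ventral level in Cd36+ V. neurons, with 1.47 ± 0.158 for Dio2, 1.05 ± 0.205 for Pcdh11x and 0.0189 to 0.0987 for Adam28, Tuba4a, Cadps2, Ptn and Cidea, whereas Zpld2 (0.266 ± 0.0559) and Gng3 (0.101 ± 0.0385) were lower there than in Cd55+ V.

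The receptor genes had been taken out before the clustering, so the receptor that each neuron carried is independent of how the cluster was made. A few olfactory populations made up most of Cd55+ V. Its 352 neurons carried 51 of the 798 receptor identities, whereas the 4600 Ventral neurons carried 572. Such a number rises with the neurons counted, and clusters of similar size were not compared in this way. The 5 most frequent identities held 152 neurons (43.2%) and the 12 most frequent 249 (70.7%), against 13.9% for the 12 most frequent identities of Ventral. In 21 identities a single neuron lay in the cluster.

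The most frequent was Olfr1440 (chr19:12387279-12401584), with 12 of 14, 20 of 20, 7 of 7 and 11 of 13 of its neurons in Cd55+ V. in mice 1 to 4, or 50 of 54 in all. Olfr827 had 30 of 30 neurons there (7, 7, 9 and 7), Olfr354 29 of 29 (7, 8, 6 and 8) and Olfr855 18 of 18. Every neuron of these 3 populations, in every mouse, lay in the cluster. Olfr1431 followed with 16 of 17, Olfr870 with 14 of 16 and Olfr1438-ps1 with 12 of 16. Other populations were divided. Olfr523 had 24 of 41 neurons in the cluster (9 of 12, 8 of 15, 6 of 7 and 1 of 7), and Olfr235 had 16 of 30 (5 of 8, 3 of 9, 5 of 7 and 3 of 6). Olfr295 had 11 of 32, Olfr1322 10 of 15, and Olfr839-ps1 19 of 28, of which 5 of the remaining neurons were in Cd55+ D. The low share of Olfr523 in mouse 4 rested on 7 neurons.

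**Figure D4:**
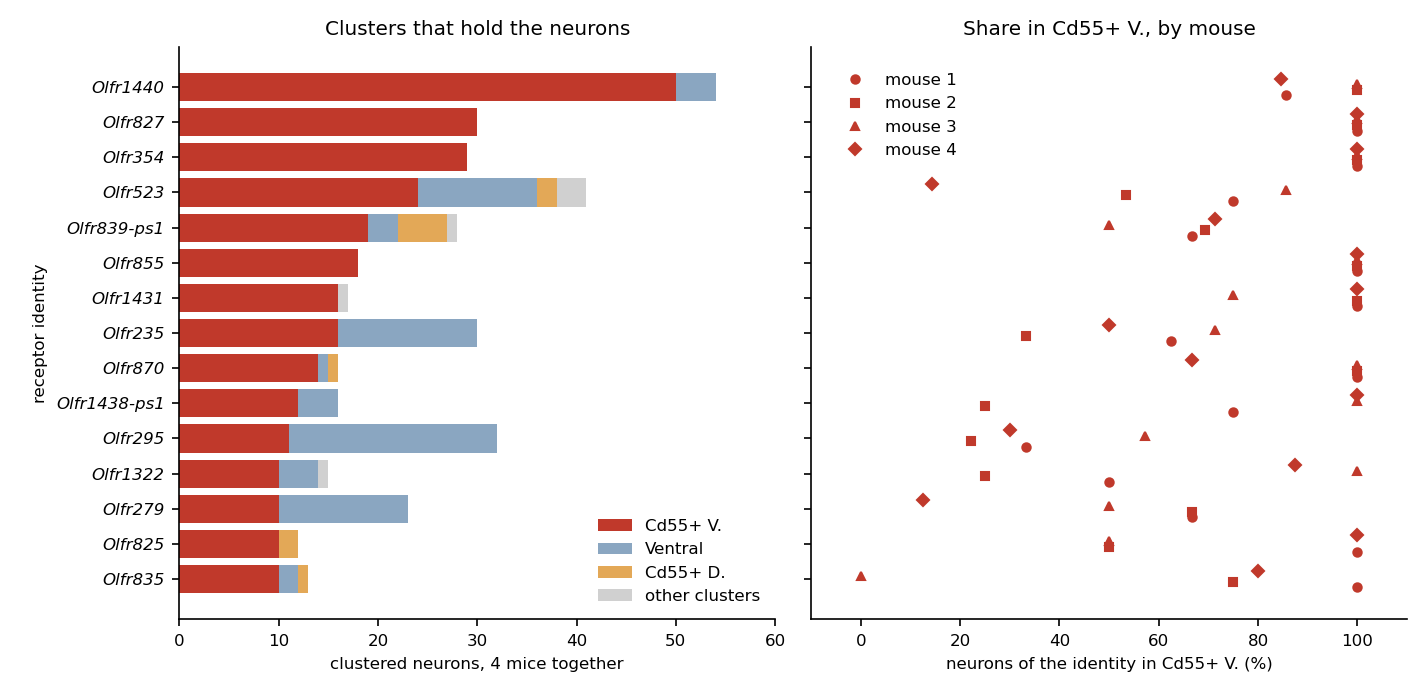
The 15 receptor identities with 10 or more neurons in Cd55+ V. (vertical axis), with the clusters that hold their neurons (left, number of neurons in 4 mice) and the share of each mouse's neurons in Cd55+ V. (right, percent, 1 symbol per mouse). Olfr827, Olfr354 and Olfr855 lie at 100% in all mice, and Olfr295, Olfr279 and Olfr235 are divided between Cd55+ V. and Ventral.

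The numbers of neurons per identity were tested between the clusters with edgeR's quasi-likelihood test, with the mouse as a block and Benjamini-Hochberg adjustment. Of 286 identities with at least 5 neurons, 17 (5.94%) were more frequent in Cd55+ V. than in Ventral and 0 (0.0%) were less frequent at an adjusted p under 0.05. With 352 neurons in the cluster, a lower frequency could hardly be called. Olfr1348, with 0 neurons in Cd55+ V. and 78 in Ventral, had an edgeR adjusted p of 0.138. The 0 therefore does not show that no identity was rarer in Cd55+ V. At an unadjusted p under 0.05 there were 19 and 9, and DESeq2 called 15 and 0. With TMM factors in place of neuron totals the calls were 8 and 166. Olfr1440 made up 14.2% of Cd55+ V. and 0.087% of Ventral neurons (log2 fold change 7.07, SE 0.856, edgeR adjusted p = 5.08e-14). Olfr827 made up 8.52% and was found in 0 of 4600 Ventral neurons, which allows a share of up to 0.0652%, so it was at least 131-fold more frequent (edgeR adjusted p = 1.73e-16). Likewise Olfr354, Olfr855 and Olfr1431 were at least 126-fold, 78.4-fold and 69.7-fold more frequent (edgeR adjusted p = 1.73e-16, 6.43e-11 and 1e-09). Without mouse 4 the bounds for Olfr354 and Olfr1431 were 80.2-fold and 38.2-fold, and Olfr1431 has a near-identical copy, Olfr235, so the counts of both are uncertain. The smallest called changes were those of divided populations. Olfr295 made up 3.12% and 0.457% (log2 fold change 2.73, SE 0.831, edgeR adjusted p = 0.0188, but -0.82 with TMM factors), Olfr279 2.84% and 0.283% (3.30, SE 0.948, 0.00994) and Olfr235 4.55% and 0.304% (3.79, SE 0.788, 5.65e-05). With TMM factors the log2 fold change of Olfr1440 was 3.65, and Olfr235 was not called (0.23, edgeR adjusted p = 0.756). Olfr870 had 14 neurons in Cd55+ V. and 1 in Ventral (edgeR adjusted p = 1.02e-07), a ratio of shares of 183 with an exact 95% counting interval of 27.8 to 7740. Without mouse 1 the number of identities called fell to 9.

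The assignment was also read in animals that were not used to choose the identities. Identities were chosen in 3 mice as those with more than 50% of their neurons in Cd55+ V., and the fourth mouse was then read. The authors had integrated the 4 mice and clustered them together, so the cluster labels of the left-out mouse were not independent of the other 3. The reading thus describes how even the assignment was over mice. In mice 1 to 4, left out in turn, 71 of 81 (87.7%), 75 of 103 (72.8%), 50 of 55 (90.9%) and 59 of 85 (69.4%) neurons of the chosen identities lay in Cd55+ V. (mean 80.2% ± 10.7, SD, n = 4). Of the neurons with any other receptor, 1.3%, 0.685%, 1.45% and 0.883% did (mean 1.08% ± 0.356). The 14 to 18 identities chosen covered 67.6% to 83.3% of the left-out mouse's Cd55+ V. neurons. Over all 4 mice, 19 identities had more than 50% of their neurons in the cluster. They are termed Cd55+ V. receptors and held 283 of the 352 neurons (80.4%), while 48 of their 353 neurons lay in Ventral and 15 in Cd55+ D.

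Cd55 itself varied among the populations. Over the 15 largest, its level in the cluster ran from 7.45 UMIs per 10000 in Olfr235 to 24.8 in Olfr1431 neurons, with a median of 18.4. The Olfr1440 neurons had 19.3, 17.8, 23.6 and 22.5 in the 4 mice. Cd55 was among the genes that set the clusters, so its difference between the sides of a divided population is built in and only described. In the Cd55+ V. against the Ventral neurons it stood at 16.3 against 2.04 for Olfr523, 12.7 against 6.00 for Olfr279, 11.1 against 4.24 for Olfr295 and 7.45 against 1.67 for Olfr235. Levels of other genes also varied among the populations. Pcp4l1 had no UMI in Olfr295 neurons of either cluster and 0.271 and 0 in Olfr1440 neurons (50 in Cd55+ V. and 4 in Ventral), whereas it reached 12.5 in the Olfr839-ps1 neurons of Cd55+ V. Faim2 stood at 4.70 and 5.52 in the Olfr235 neurons of Cd55+ V. and Ventral and at 0.0388 in the Olfr1440 neurons of Cd55+ V. Gm49542 ranged from 0 in Olfr870 to 6.30 in Olfr855 neurons, Gng3 from 0 in Olfr279 to 2.09 in Olfr827, and Fxyd2 from 0 in Olfr295 to 3.00 in Olfr855. These are sums over 4 mice and over as few as 4 neurons.

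Averaged over all neurons of each cluster, receptor transcripts were somewhat more abundant in Cd55+ V. than in Ventral. The receptor that gave a neuron its identity had 116, 116, 118 and 101 UMIs per 10000 on average in mice 1 to 4, against 93.7, 98.5, 96.0 and 98.2 in Ventral neurons. The difference was 16.4 ± 9.05 (SD, n = 4), higher in 4 of 4 mice, with an exact two-sided permutation p of 0.125, the smallest that 4 mice allow. It was 15.3 after thinning and 40.5 when each population counted once, which gives small populations more weight. Over the 15 identities with most neurons in the cluster, the mean ran from 41.5 in Olfr839-ps1 to 205 in Olfr870 neurons. Of these, Olfr827 (115), Olfr855 (153) and Olfr870 lay above the Ventral mean of 96.6, and Olfr825 lay at 96.6. The others lay below it, among them Olfr1440 (91.1), Olfr354 (84.2) and Olfr523 (72.8). The higher cluster mean thus did not hold for most of the largest populations. A further receptor gene was detected in 27.9%, 18.9%, 33.8% and 25.0% of Cd55+ V. and in 33.0%, 31.6%, 42.7% and 25.5% of Ventral neurons. That share was lower in every mouse (difference -6.80 percentage points ± 5.21, exact permutation p = 0.125), and after thinning it was 16.5% against 21.2%.

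The genes of the 19 Cd55+ V. receptors were spread over 8 chromosomes. Chromosome 19 held 5 of 19 (26.3%), namely Olfr1431, Olfr235, Olfr1434, Olfr1438-ps1 and Olfr1440, against 6.94% of 317 Ventral receptors. Chromosome 9 held 4 (21.1% against 7.89%), whereas chromosome 2 held 3, a smaller share than among Ventral receptors (15.8% against 28.1%). The median identity of their coding sequences was 57.3% over 171 pairs of Cd55+ V. receptors and 57.0% over 6023 pairs of a Cd55+ V. and a Ventral receptor. For genes on 1 chromosome these medians were 66.7% over 21 pairs and 57.9% over 635 pairs. The most alike receptor was itself a Cd55+ V. receptor for 5 of 19 (26.3%), where 2.38% of all identities were such receptors. The nearest receptor gene on the chromosome was one for 3 of 19. Close relatives could fall in the same cluster or in different ones.

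The 4 relatives on chromosome 19 show both cases, and their sequences are given because 3 were Cd55+ V. receptors and 1 was not. Olfr1431 and Olfr235 had 96.5% identical coding sequences and lay 16 of 17 and 16 of 30 in Cd55+ V. Olfr1434 was 87.4% identical to Olfr1431, with 3 of 3 neurons in the cluster, whereas Olfr1437 was 82.8% identical to Olfr1431 and 89.5% to Olfr1434, with 0 of 24 neurons in Cd55+ V. and 19 in Ventral. The stretch is coding bases 355 to 474 from the reference (GENCODE M21, GRCm38), written 5′ to 3′ along the gene. It starts at the codon that opens the conserved receptor motif after the third membrane helix, and capitals mark bases that differ from Olfr1431. Of 120 bases, 1 differed in Olfr235, 6 in Olfr1434 and 7 in Olfr1437.
Olfr1431, chr19:12209922-12210041, plus strand: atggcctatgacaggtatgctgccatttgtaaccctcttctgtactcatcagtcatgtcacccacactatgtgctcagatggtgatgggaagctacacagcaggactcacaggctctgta
Olfr235, chr19:12268586-12268705, plus strand: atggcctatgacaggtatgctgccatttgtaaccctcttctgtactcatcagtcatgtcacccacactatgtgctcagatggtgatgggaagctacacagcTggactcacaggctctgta
Olfr1434, chr19:12283404-12283523, plus strand: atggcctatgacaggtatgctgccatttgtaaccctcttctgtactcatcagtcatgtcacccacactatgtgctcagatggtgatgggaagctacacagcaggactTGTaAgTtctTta
Olfr1437, chr19:12322352-12322471, minus strand: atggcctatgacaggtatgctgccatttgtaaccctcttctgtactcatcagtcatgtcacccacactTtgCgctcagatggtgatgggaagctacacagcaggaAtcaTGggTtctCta

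Other close pairs were divided between clusters. Olfr825 (10 of 12 neurons in Cd55+ V.) and Olfr826 (0 of 24 in Cd55+ V., 14 in Calb2+ D.) had 96.5% identical coding sequences, and the same 120 coding bases, from base 361, did not differ at all. Olfr1253 (7 of 11) and Olfr1251 (0 of 15, with 14 in Cd36+ V.) had 93.9% identity and 7 differing bases, and their windows are given as an example of a close pair in different clusters, with capitals where Olfr1251 differs. Olfr316 (4 of 4) and Olfr318 (0 of 15, with 11 in Ventral) had 95.9% identity. Reads of such near-identical copies can be assigned to the wrong one or dropped as ambiguous, so counts of these receptors, and of Olfr1431 and Olfr235, are uncertain, and the part of such reads in these splits was not tested.
Olfr1253, chr2:89752362-89752481, minus strand: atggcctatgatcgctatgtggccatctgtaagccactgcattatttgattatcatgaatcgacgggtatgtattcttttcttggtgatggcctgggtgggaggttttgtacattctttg
Olfr1251, chr2:89667420-89667539, minus strand: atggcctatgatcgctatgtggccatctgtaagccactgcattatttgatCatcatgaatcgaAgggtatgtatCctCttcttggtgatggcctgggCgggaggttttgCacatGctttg

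Immature neurons offered an independent reading of the profile, because they did not enter the clustering of mature neurons. Among 1006 cells of iOSN2, one of 2 clusters of immature neurons named by the authors, 899 could be given a receptor by the rule used for mature neurons. Of these, 21 cells (10, 4, 4 and 3 in mice 1 to 4) carried one of the Cd55+ V. receptors and 374 (84, 114, 65 and 111) carried one of the receptors with more than 50% of neurons in Ventral. The 21 cells held 9 identities, with 7 of them expressing Olfr1440 and 3 Olfr1434. Summed UMIs per mouse were 15355 to 86134 for the first set and 643118 to 757486 for the second.

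Cd55 was also higher in immature neurons that carried these receptors. Of 5580 genes, 32 (0.573%) were higher and 74 (1.33%) were lower at an adjusted p under 0.05 (edgeR's quasi-likelihood test, mouse as a block, Benjamini-Hochberg adjustment). The test pools the spread over genes, so a small p does not show that a gene's values were alike in all mice. Cd55 stood at 4.88, 2.08, 5.99 and 0.651 UMIs per 10000 against 0.133, 0.106, 0.155 and 0.0909 (log2 fold change 4.73, SE 0.384, edgeR adjusted p = 1.51e-31). Every mouse was higher, although mouse 4, with 3 cells, was far below the others. Zpld2 stood at 1.16, 0.298, 0.285 and 1.95 against 0, 0.0528, 0 and 0.0455 (4.91, SE 0.561, edgeR adjusted p = 4.75e-11). Pcdh11x stood at 2.67, 0.893, 1.71 and 1.95 against 0.0884, 0.172, 0.311 and 0.121 (3.40, SE 0.414, edgeR adjusted p = 1.08e-13). The remaining genes with the largest rises were Tppp3, a microtubule-binding protein (3.41, SE 0.38, edgeR adjusted p = 2.73e-16), and Gng3 (3.17, SE 0.38, edgeR adjusted p = 4.44e-14). Gng3 stood at 2.67, 2.38, 2.00 and 6.51 with Cd55+ V. receptors. With Ventral receptors its mean was 0.641 in iOSN1, the less mature cluster, and 0.290 in iOSN2, and mature Ventral neurons had 0.0251. The part of maturity in the rise of Gng3 was not tested.

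The 5 lower genes that the naming rule took by fitted fold change had no UMI in the 21 cells, so that only bounds are given and their order by size is not known. Kcnmb3 and Syn2 were also called lower with no UMI. In these cells 3 counts over the set would be 0.176 UMIs per 10000. Rprm, a cell cycle inhibitor, was at least 11.7-fold lower than the level of 2.49, 2.28, 1.55 and 1.91 in cells with Ventral receptors (edgeR adjusted p = 1.02e-13). Cadps2 was at least 9.18-fold lower, Caly, a dopamine receptor-interacting protein, at least 5.94-fold, Tuba4a at least 5.61-fold and the protocadherin Pcdh7 at least 5.15-fold (edgeR adjusted p = 1.73e-10, 7.15e-06, 1.71e-05 and 0.000258). Without mouse 1 these 5 bounds were 2.57-fold to 5.36-fold. Faim2 stood at 0.116, 1.19, 0.571 and 0.651 against 8.01, 7.99, 7.85 and 7.27 (log2 fold change -4.13, SE 0.331, edgeR adjusted p = 4.56e-32). Mslnl had 2 UMIs against 1202, a pooled level 37.3 times lower with an exact counting interval of 10.3 to 309 times (edgeR adjusted p = 1.66e-23). All mice were lower for each of these genes.

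The calls overlapped with the mature profile. Of the 32 genes called higher, 25 (78.1%) were among the 212 higher genes of mature Cd55+ V. neurons. These 25 were 11.8% of that set and 16.3% of its 153 genes that could be tested in iOSN2. Of the 74 called lower, 38 (51.4%) were among the 217 lower genes, or 17.5% of them and 20.9% of the 182 that could be tested. Over all 5580 genes tested, 0.573% were called higher and 1.33% lower. A gene could pass the filter on low counts through the set of cells where it was high, so these counts describe the overlap and test nothing. None was called in the opposite direction. Of 5062 tested genes that were not apart in mature neurons, 3 were called higher and 28 lower. Of the 26 genes named for mature neurons 16 could be tested. Arpp21 (log2 fold change 2.18, SE 0.525, edgeR adjusted p = 0.00328) and Igfbp7 (2.17, SE 0.551, edgeR adjusted p = 0.00778) were also called higher, and Ptn (-2.35, SE 0.266, edgeR adjusted p = 7.21e-16) and Cidea (-3.26, SE 0.499, edgeR adjusted p = 1.75e-08) were called lower, whereas Crym was not called (-2.49, SE 1.14, edgeR adjusted p = 0.444). Without mouse 1 the log2 fold changes of Pcdh11x, Faim2, Ptn and Cidea were 2.56, -3.38, -1.54 and -2.49, and DESeq2 did not call Ptn.

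The gene lists in iOSN2 are set against all genes tested, of which 0.573% were higher and 1.33% lower, with a median log2 fold change of -0.11. Of 17 transduction genes 2 (11.8%, median -0.45) were lower, Stoml3 (28.7, 31.9, 35.7 and 15.0 against 68.4, 60.6, 64.1 and 64 UMIs per 10000, edgeR adjusted p = 7.86e-12) and Pde1c (log2 fold change -1.75, SE 0.399, edgeR adjusted p = 0.00147). Cnga2 had a log2 fold change of -0.62 (SE 0.213, edgeR adjusted p = 0.136). Of 12 activity genes 4 (33.3%, median -1.54) were lower, S100a5 (24.6, 44.7, 5.99 and 114 against 145 to 162 UMIs per 10000), Pcp4l1 (0.464, 1.19, 0.285 and 0 against 8.01, 10.2, 8.27 and 10.6), Kirrel2 and Epha5 (edgeR adjusted p = 1.23e-30, 4.41e-35, 1.83e-07 and 3.76e-09). Of 25 guidance genes (median -0.81) 6 (24.0%) were lower and 1 was higher, Pcdh8 (log2 fold change 1.67, SE 0.465, edgeR adjusted p = 0.0221). The maturity marker Omp stood at 38.1, 50.3, 43.4 and 30.6 against 49.2, 51.0, 53.0 and 52.9 (log2 fold change -0.48, SE 0.167, edgeR adjusted p = 0.133) and Gap43, an axon growth gene of immature neurons, at 5.34, 6.55, 3.14 and 7.82 against 7.93, 9.53, 7.76 and 7.85 (-0.73, SE 0.189, edgeR adjusted p = 0.00951). Omp and Gap43 were both lower within every mouse. Nfix had 3.32 ± 1.51 against 3.83 ± 0.237 UMIs per 10000 and Nqo1 0.518 ± 0.856 against 0.150 ± 0.186 (SD, n = 4). In iOSN1, the other immature cluster, 9 cells from 3 mice carried a Cd55+ V. receptor and had no Cd55 UMI among 54604 UMIs, which allows up to 0.549 UMIs per 10000. The 222 cells with Ventral receptors had 0.323, which is below this limit, and the iOSN2 cells with Cd55+ V. receptors, at a mean of 3.40 ± 2.46 (SD, n = 4), were above it. The difference between the 2 immature clusters was not tested. The calls in iOSN2 depended on mouse 1, which gave 10 of the 21 cells: without it 13 genes were called higher and 28 lower. Without mouse 2, 21 were called higher, and without mice 3 and 4, 43 and 48 were called lower.

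**Figure D5:**
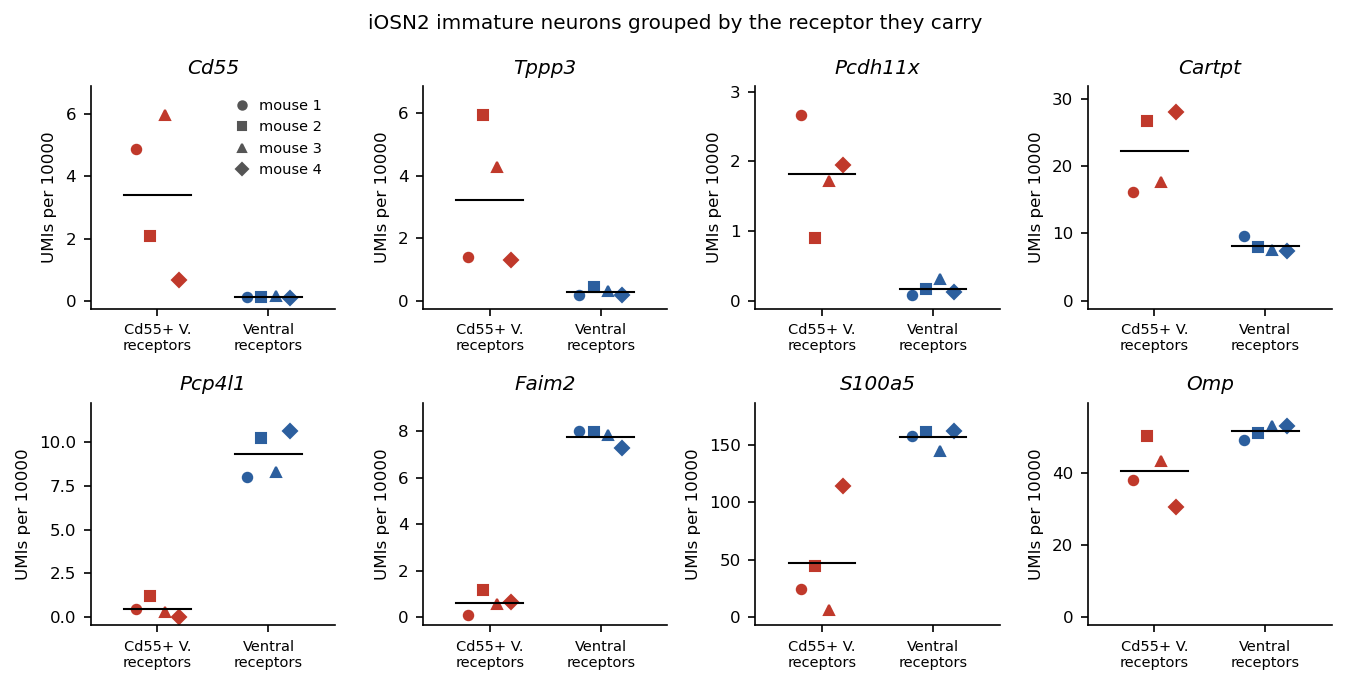
UMIs per 10000 (vertical axes) of 8 genes in iOSN2 cells that carried a Cd55+ V. receptor (left in each panel) or a Ventral receptor (right), with 1 symbol per mouse and a bar at the mean. Cd55, Tppp3, Pcdh11x and Cartpt lie higher and Pcp4l1, Faim2 and S100a5 lower with Cd55+ V. receptors in every mouse. Omp is also lower within every mouse, but the ranges overlap, since it reaches 50.3 in mouse 2 against 49.2 to 53.0. Cartpt, Pcp4l1, S100a5 and Omp were chosen for the plot after their values were seen.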

How the data were processed

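Cells of the MOE of 4 mice were sequenced, 1 droplet library per mouse. The authors mapped reads with Cell Ranger 6.0.1 to GRCm38 with an Ensembl annotation changed at the 3′ ends of receptor genes, and deposited raw UMI counts per gene and cell with a table of cell labels, in which the percent of mitochondrial UMIs was also deposited by the authors. They removed blood, immune and damaged cells, and neurons with no receptor or with 2 receptors above their limit. The data of the 4 mice were then integrated, and mature neurons were clustered in Seurat without receptor genes. No further cells were removed here. Receptor identities were rebuilt from the counts and equalled the deposited ones in 9791 of 9791 neurons.

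The counts were summed per mouse and cluster and given as UMIs per 10000 of all UMIs, and receptor genes were left out of the genes compared. Log2 ratios within a mouse used a pseudocount of 0.5 UMIs. The counts of neurons per receptor identity and the UMI sums of immature neurons were tested with edgeR 4.0.16 (R 4.3.3, quasi-likelihood, Benjamini-Hochberg adjustment). Both sets of neurons of 1 number came from 1 animal, so the mouse was a block, and correlations of their deviations from the group means were -0.0618 to 0.0433. In simulated data the make-up test recovered 5 of 20 identities raised 8-fold and 20 of 20 raised 64-fold, and the test of immature neurons recovered 55.5% of genes changed 4-fold and 75.5% changed 8-fold. Single values were compared by exact sign-flip permutation over the 4 mice (scipy 1.17.1), which cannot go below 0.125. Scrublet (scanpy 1.11.5) marked 0.0176% to 0.616% of barcodes per library, too few to be of use, so the 4% with the highest scores were left out as an alternative. Of 21755 distinct barcodes, 54 occurred in 2 or more libraries. Other alternatives were TMM or upper-quartile scaling, DESeq2 1.42.0, other filters, thinning to 3000 UMIs and leaving out each mouse. Positions and coding sequences came from GENCODE M21, and all 798 identities matched by gene ID.

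Named genes were Cd55, Nfix, Nqo1, the 12 genes furthest apart in each direction that reached 0.5 UMIs per 10000, and members of the lists that were apart, then the 12 most frequent identities, up to 5 called identities at each end, and up to 5 called genes each way in iOSN2. List members that were not apart, genes of the lists in iOSN2, the promoter and the receptor pairs were picked after their values were seen. The cluster, its markers and the lists were chosen with earlier results of these data known.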

Additional observations from a re-analysis of the deposited data

Results flagged for a closer look

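In 8 of 107 sets of 4 values (1 per mouse), 1 mouse lay far from the other 3, with a gap to its neighbour that exceeded Dixon's 95% critical value. Chance marks about 1 in 20 such sets. In mature Cd55+ V. neurons Nqo1 was at 0.310 UMIs per 10000 in mouse 4 against 2.05 to 2.34 in the others, Fezf1 at 0.0258 in mouse 4 against 0.0610 to 0.0668, Tmem132a at 0.122 in mouse 3 against 0.0223 to 0.0312, and Crym at 0 in mouse 2 against 0.0936 to 0.103. The identity-giving receptor had 101 UMIs per 10000 in mouse 4 against 116 to 118. In iOSN2 cells with Cd55+ V. receptors Gng3 was at 6.51 in mouse 4 against 2.00 to 2.67, and Mslnl was at 0.595 in mouse 2 and at 0 in the others. In iOSN2 cells with Ventral receptors Gap43 was at 9.53 in mouse 2 against 7.76 to 7.93. The values of Fezf1, Tmem132a, Crym and Mslnl rest on 2 to 15 UMIs over all mice, and those of iOSN2 cells with Cd55+ V. receptors on 3 or 4 cells in mice 2 to 4.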

How the results depend on the processing

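Genes apart numbered 77 higher and 89 lower at a 2-fold limit and 72 and 58 at a minimum mean of 1 UMI per 10000, both by construction stricter, and without each mouse in turn 242 to 261 higher and 248 to 266 lower. The identities more frequent in Cd55+ V. numbered 18, with 3 less frequent, without the replicate block, and 8, with 166 less frequent, under TMM factors, where the Olfr295 log2 fold change was -0.82. TMM assumes that most identities have equal shares in both clusters. Without each mouse the identities called numbered 9 to 15 (9 without mouse 1) and 0 less frequent. In iOSN2, genes called higher and lower numbered 39 and 86 without the replicate block, 19 and 123 without the filter on low counts, 23 and 29 with DESeq2, and 20 and 56 for receptors with at least 80% of neurons in a cluster. Without each mouse they numbered 13 to 28 and 28 to 51. The causes were not tested, except that fewer cells and UMIs remained without a mouse. The share of the cluster (3.59% to 4.07%) and the differences in receptor UMIs (14.4 to 20.8 per 10000) and in further receptors (-8.89 to -4.84 percentage points) kept their direction without each mouse. Under the alternatives 120 values of single identities kept direction and call, 11 lost the call and 1 turned. For named iOSN2 genes 198 values kept both and 13 lost the call, and of the named gene levels 271 moved by less than the spread between mice and 15 by more. The depth of the 21 iOSN2 cells limits what could be called there.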

Other observations

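Neurons that the authors left unclustered gave a small further sample. In 9 mature neurons from the 4 mice, the most abundant receptor was a Cd55+ V. receptor, and in 227 it was a Ventral receptor. Pooled over mice and without a test, Cd55 stood at 17.5 against 1.43 UMIs per 10000 and was detected in 9 of 9 against 59 of 227 neurons. The neuropeptide gene Cartpt stood at 26.7 against 7.09, the microtubule-binding Tppp3 at 3.46 against 0.908, and Faim2 at 1.15 against 9.56. Pcp4l1 had no UMI in the 9 neurons and was detected in 208 of the 227.

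Some genes outside the rule for named genes were picked after their values were seen. In mature neurons Cartpt stood at 24.2, 20.6, 21.7 and 20.1 UMIs per 10000 in Cd55+ V. against 5.45, 4.82, 5.23 and 5.49 in Ventral neurons, and its mean was 22.7 to 33.9 in the 5 dorsal clusters. Olig1, a basic helix-loop-helix transcription factor better known in oligodendrocytes, stood at 4.4, 4.48, 4.88 and 4.45 against 0.934, 0.963, 1.18 and 0.946, and its relative Olig2 at 1.15 ± 0.210 against 0.369 ± 0.0465 (SD, n = 4). In Cd36+ V. neurons Olig1 stood at 3.87 ± 0.564 and Olig2 at 0.927 ± 0.265, and the ranges over mice overlapped with those of Cd55+ V. In iOSN2 cells with Cd55+ V. receptors Olig1 stood at 5.57, 5.95, 4.00 and 4.56 against 1.22, 1.31, 1.52 and 1.36 with Ventral receptors (log2 fold change 1.84, SE 0.217, edgeR adjusted p = 1.54e-14), and Cartpt at 16.1, 26.8, 17.7 and 28.0 against 9.65, 7.99, 7.54 and 7.35 (1.22, SE 0.152, edgeR adjusted p = 5.58e-13). Both were higher in 4 of 4 mice. Gng8, a G protein gamma subunit of immature neurons, stood at 1.16, 5.36, 0.571 and 11.7 against 0.413, 0.766, 0.669 and 0.379 and was higher in 3 of 4 mice (2.44, SE 0.338, edgeR adjusted p = 1.73e-10). The mice thus differed widely for Gng8, a spread that the SE and the p do not measure.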
